A study of Mus musculus with 8 samples.

Results

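The genes described here copy DNA at the replication fork, correct the copy and restore its chromatin. The set was a list of 35 gene symbols: subunits of the replicative polymerases and primase, the sliding clamp and its loader, single-strand binding proteins, enzymes that join Okazaki fragments, helicase activation factors, Orc1 and Orc6, Ung, Msh6, Brca1, 4 chromatin maintenance genes, Slbp and Cdc25a. Licensing, histone chaperone and nucleotide synthesis genes were left out of the list. A gene was read from its brightest probe among those with a detection p-value under 0.05 on at least 2 arrays. On this rule 32 of the 35 genes had a named probe and 25 were measured, of 10214 features measured in all.

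Expression was read on 8 Illumina bead arrays of mouse embryonic fibroblasts (MEFs) of C57BL/6 background, from embryos of 13.5 days. The E2F3LQ MEFs carried the E2F3 L430Q knock-in allele, a leucine to glutamine change in the part of E2F3 that binds Rb, and the WT MEFs carried normal E2F3. The labels do not give the number of mutant alleles, and the study's methods name the mutant MEFs E2F3LQ/LQ and obtain embryos by crossing heterozygous mice. The 4 groups were starved E2F3LQ, starved WT, proliferating E2F3LQ and proliferating WT MEFs, with 2 arrays each. E2F3LQ clones 2 and 4 and WT clones 1 and 16 were each measured once per condition, after 72 h without FBS or growing in 10% FBS. The mutation is in the germ line, so no promoter or Cre limits it to some cells. The labels call the cell samples clones and do not say whether each came from its own embryo, so the p-values measure the spread between these samples.

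A replication fork is opened by the CMG helicase, which Cdc45 and the GINS complex complete. DNA polymerase alpha with primase lays down primers, RFC loads the PCNA clamp, polymerases delta and epsilon extend, RPA covers the exposed single strands, and Fen1 and Lig1 turn Okazaki fragments into a continuous strand. Behind the fork, Msh6 finds mismatches, Ung removes uracil, Uhrf1 and Dnmt1 copy DNA methylation, and Ezh2 methylates histone H3. Many of these genes are known targets of E2F transcription factors, which Rb family proteins hold in check in cells out of the cycle, and the comparison of genotypes asks how E2F3 with impaired Rb binding affects their level in each condition.

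Promoters were searched for E2F sites because the members share this reported regulator. RefSeq windows of 300 bases (build GRCm38.p6, 250 bases before to 50 after a start site) matched 29 of the 35 members, and Prim2, Pole, Rfc2, Gins1, Gins2 and Gins4 were not matched. The words TTTCGCGC, TTTGGCGC, TTTCCCGC and TTTGCCGC were searched on both strands. At least 1 of these 4 words stood in a window of 13 members (44.8% of 29), beside 704 of all 27025 genes with a window (2.6%). CCAAT, the NF-Y motif, stood in a window of 20 members (69%, beside 41.1% of genes), and TTTGAA, the core of the CHR element, in 5 (17.2%, beside 20.2%). Of the members that RT-PCR had covered in the study, Lig1 had an E2F word in 1 of its 3 windows, and the windows of Pcna and Rpa2 held none of the 4 E2F words. Among the matched members called lower after starvation, Ezh2 and Lig1 held an E2F word and Cdc45, Ung, Pold2 and Fen1 held none. Pola1, Pole2, Rfc3, Orc1 and Hells held a word but were not measured. The windows shown are those of 4 members whose levels are described in the results and that held an E2F word. Each is printed 5′ to 3′ on the gene's strand, with the E2F word, or its reverse complement, in capitals.
Ezh2, chr6:47594981-47595280, minus strand: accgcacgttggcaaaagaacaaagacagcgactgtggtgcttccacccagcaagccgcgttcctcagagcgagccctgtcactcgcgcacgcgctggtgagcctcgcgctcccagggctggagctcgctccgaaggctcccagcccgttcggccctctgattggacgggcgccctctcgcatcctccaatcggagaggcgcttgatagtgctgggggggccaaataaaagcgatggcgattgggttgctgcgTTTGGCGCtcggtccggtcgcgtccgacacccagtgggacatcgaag
Lig1, chr7:13278576-13278875, plus strand: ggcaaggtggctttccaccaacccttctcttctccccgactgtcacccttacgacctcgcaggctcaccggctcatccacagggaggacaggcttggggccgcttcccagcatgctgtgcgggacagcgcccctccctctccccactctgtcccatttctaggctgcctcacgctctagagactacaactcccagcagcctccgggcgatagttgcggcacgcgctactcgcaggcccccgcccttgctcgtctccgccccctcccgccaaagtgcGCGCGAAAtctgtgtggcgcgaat
Msh6, chr17:87974800-87975099, plus strand: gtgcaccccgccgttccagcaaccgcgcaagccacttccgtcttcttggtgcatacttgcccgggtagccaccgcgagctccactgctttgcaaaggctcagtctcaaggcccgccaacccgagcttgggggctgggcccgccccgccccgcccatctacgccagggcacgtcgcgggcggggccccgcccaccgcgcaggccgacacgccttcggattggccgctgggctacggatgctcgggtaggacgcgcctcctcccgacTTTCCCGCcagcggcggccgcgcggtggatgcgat
Cdc25a, chr9:109875329-109875628, plus strand: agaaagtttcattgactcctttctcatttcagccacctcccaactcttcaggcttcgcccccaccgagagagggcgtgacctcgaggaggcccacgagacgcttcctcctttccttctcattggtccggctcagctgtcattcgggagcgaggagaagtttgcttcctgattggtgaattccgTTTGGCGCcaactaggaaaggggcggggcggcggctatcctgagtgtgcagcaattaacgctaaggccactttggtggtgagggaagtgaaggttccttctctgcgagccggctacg
The Ezh2 and Cdc25a windows held TTTGGCGC, the Msh6 window TTTCCCGC, and the Lig1 window the reverse complement of TTTCGCGC. These matches describe the letters only, and binding was not measured here.

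Array medians lay between 108.4 and 127.3 intensity units, and 12141 to 12420 probes per array (47.2% to 48.3%) were detected, with 23 to 25 of the measured members detected on each array. The array of proliferating E2F3LQ clone 2 stood apart: 685 features lay more than 2-fold away from the average of the 3 remaining proliferating arrays, while each of those 3 had 103 to 223 such features. Several counts, medians and single-gene differences that rest on it are therefore also given without it. The E2f3 probe read 6.14 and 6.01 in starved E2F3LQ MEFs, against 6.54 and 6.65 in starved WT MEFs, and 6.74 and 6.60 in proliferating E2F3LQ MEFs, against 7.06 and 6.97 in proliferating WT MEFs. A point mutation leaves the transcript in place, so this probe does not check the genotype. Of 10 fibroblast markers 8 were measured, with summed intensities of 14981 and 15856 in starved E2F3LQ, 15113 and 15507 in starved WT, 16845 and 21978 in proliferating E2F3LQ and 23461 and 23395 in proliferating WT MEFs. Postn was detected on no array and Fn1 had no named probe. The sums hide opposite changes after starvation over both genotypes. Col3a1 (1.64) and Pdgfra (1.67) were higher, and Col1a1 (-0.96) and Thy1 (-0.73) lower, each at a limma adjusted p under 0.05.

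Not all members could be read. Rfc3, Gins1 and Gins2 had no named probe. Probes for Pola1, Prim1, Pole2, Orc1, Brca1, Hells and Slbp were detected on none of the 8 arrays, so the catalytic subunits of polymerase alpha and primase, the largest origin recognition subunit and the histone mRNA binding protein have no level here. Pcna was near the background: its probe was detected only on the proliferating arrays of E2F3LQ clone 2 and WT clone 1. All levels of single genes are normalized log2 intensities, whose zero point is not an absence of RNA, and were compared only with the same probe. The marker sums add normalized intensities of different probes on the linear scale, so bright probes weigh most.

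**Figure D1:**
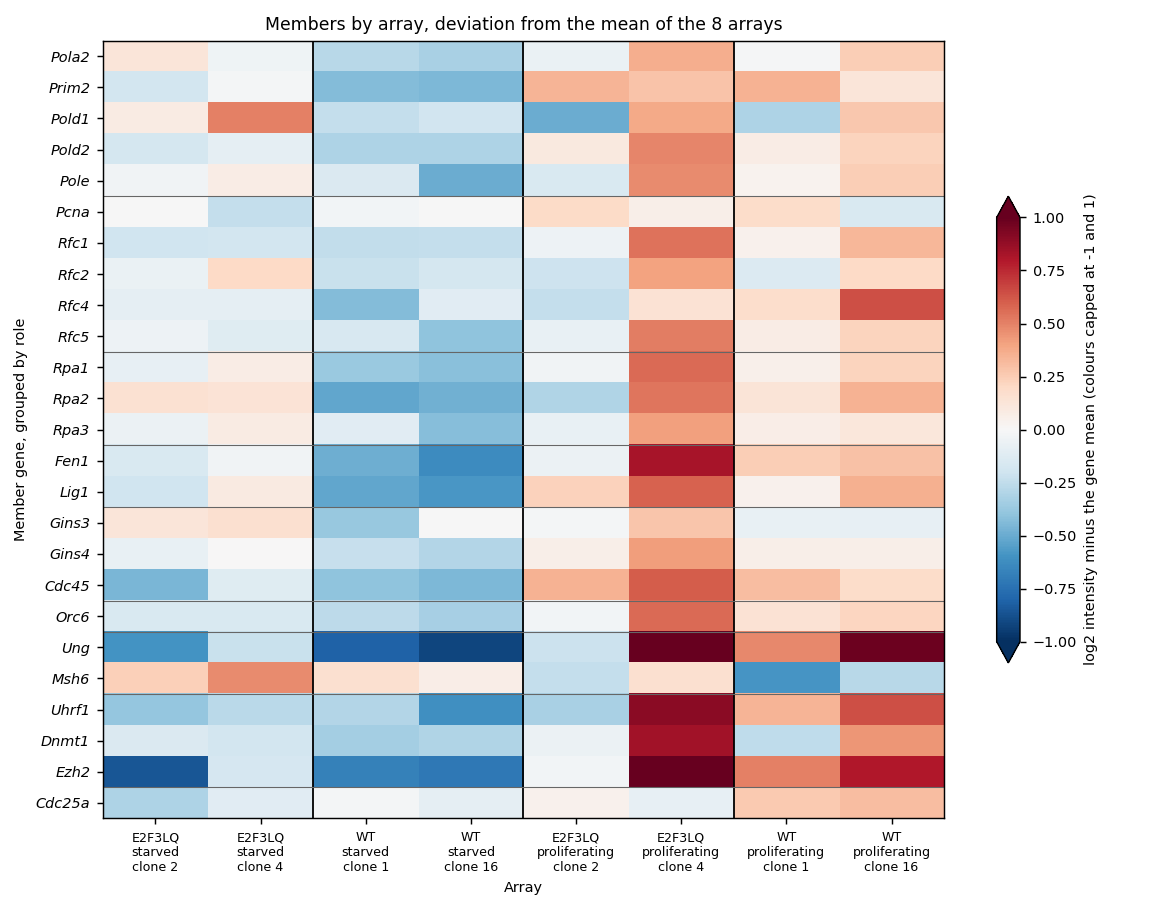
Level of each of the 25 measured members (rows, grouped by role) on each of the 8 arrays (columns), as log2 intensity minus that member's mean over the 8 arrays. Starved WT arrays are mostly blue, the proliferating array of E2F3LQ clone 4 is the reddest, and Msh6 runs the other way.

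After serum starvation part of the fork machinery was lower. Over both genotypes, Cdc45, Prim2, Ezh2, Lig1, Ung, Pold2 and Fen1 fell, by 0.44 to 1.27 on the log2 scale, and no member rose. These 7 of 25 members stood beside 11.5% of all features called lower and 10.9% called higher (adjusted p under 0.05, limma's moderated test with Benjamini-Hochberg adjustment over all features). The fold changes of 23 members were negative, with a median of -0.37 over the members and 0.0011 over all features. Without Pcna, whose probe was detected on no starved array, 22 of 24 were negative and the median was -0.38. In a bulk sample, fewer cells in S phase and less of an RNA in each cell cannot be told apart.

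Ezh2, the histone methyltransferase of the Polycomb repressive complex, read 5.66 and 6.34 in starved E2F3LQ MEFs and 5.84 and 5.80 in starved WT MEFs, against 6.49 and 7.64 in proliferating E2F3LQ MEFs and 7.02 and 7.32 in proliferating WT MEFs. All 4 starved arrays were below all 4 proliferating arrays. It fell by 1.21 on the log2 scale (SE 0.27, adjusted p = 0.0212 with limma), to a ratio of 0.433. Ung, the uracil glycosylase, read 5.53 and 5.90 in starved E2F3LQ and 5.32 and 5.21 in starved WT MEFs, against 5.92 and 7.43 in proliferating E2F3LQ and 6.61 and 7.10 in proliferating WT MEFs. It fell by 1.27 (SE 0.32, limma adjusted p = 0.0295), the largest change among the members by size. The groups did not overlap, though starved clone 4 (5.90) and proliferating clone 2 (5.92) nearly met, and 2 dimmer Ung probes, detected on 3 and 2 arrays, gave -0.16 and -0.34.

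Cdc45, the helicase cofactor, had the smallest p of the members. It read 6.01 and 6.35 in starved E2F3LQ and 6.06 and 6.02 in starved WT MEFs, against 6.82 and 7.07 in proliferating E2F3LQ and 6.78 and 6.65 in proliferating WT MEFs, with no overlap. It fell by 0.72 (SE 0.13, limma adjusted p = 0.0089). Its GINS partners moved less: Gins4 differed by -0.30 and Gins3 by -0.05, neither past the threshold.

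Prim2, the large primase subunit, read 6.55 and 6.72 in starved E2F3LQ and 6.30 and 6.28 in starved WT MEFs, against 7.07 and 7.02 in proliferating E2F3LQ and 7.09 and 6.85 in proliferating WT MEFs, again with no overlap. It fell by 0.55 (SE 0.11, limma adjusted p = 0.0139). A second, dimmer Prim2 probe detected on all 8 arrays differed by only -0.07, so the 2 probes disagree. Pold2, the accessory subunit of polymerase delta, fell by 0.44 (SE 0.12, limma adjusted p = 0.0428) with no overlap between conditions, and with the clone as a replicate block it was not called (limma adjusted p = 0.0531). Its catalytic partner Pold1 was 1 of the 2 members with a positive value, at 0.08 (SE 0.23).

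Both enzymes of Okazaki fragment joining fell. Lig1, the ligase, read 6.58 and 6.87 in starved E2F3LQ and 6.26 and 6.20 in starved WT MEFs, against 7.01 and 7.37 in proliferating E2F3LQ and 6.82 and 7.13 in proliferating WT MEFs. The starved E2F3LQ clone 4 lay above 1 proliferating array, WT clone 1. Lig1 fell by 0.61 (SE 0.14, limma adjusted p = 0.0232), while a second probe detected on 6 arrays gave -0.42 and another, detected on 2 arrays, gave 0.21. Fen1, the flap nuclease, read 8.32 and 8.44 in starved E2F3LQ and 7.98 and 7.84 in starved WT MEFs, against 8.42 and 9.30 in proliferating E2F3LQ and 8.72 and 8.77 in proliferating WT MEFs. It fell by 0.65 (SE 0.19, limma adjusted p = 0.0488), with proliferating clone 2 just under starved clone 4.

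Msh6, a mismatch-binding protein, ran the other way. It read 9.85 and 10.08 in starved E2F3LQ and 9.77 and 9.67 in starved WT MEFs, against 9.37 and 9.77 in proliferating E2F3LQ and 9.01 and 9.33 in proliferating WT MEFs. The difference was 0.47 (SE 0.14, limma adjusted p = 0.0524), just outside the threshold, and a second Msh6 probe gave 0.42. In every clone the starved array was the higher.

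The remaining members had smaller or more variable differences. The 3 RPA subunits differed by -0.26 (Rpa3) to -0.40 (Rpa1), the 4 measured clamp loader subunits by -0.13 (Rfc2) to -0.43 (Rfc1), and Orc6, a small subunit of the origin recognition complex, by -0.45. Uhrf1, which reads hemimethylated DNA, differed by -0.78 (SE 0.26, limma adjusted p = 0.0714), and Dnmt1, the maintenance methyltransferase, by -0.49 (SE 0.23, limma adjusted p = 0.173). Cdc25a, the phosphatase that activates cyclin-dependent kinases, differed by -0.26. Of the 25 members 8 had all 4 starved arrays below all 4 proliferating arrays, beside 15.5% of all features, and 14 were lower after starvation in all 4 clones, beside 23.7% of all features.

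Within genotypes the numbers of arrays were smaller. In E2F3LQ MEFs 21 of 25 values were negative (median -0.27) and 0 members were called, beside 2.14% of all features called lower, while 4 were lower at an unadjusted p under 0.05, beside 11.8% of all features. In WT MEFs 24 values were negative (median -0.46) and 1 member fell, Prim2 (-0.68, SE 0.15, limma adjusted p = 0.0427), beside 4.3% of all features called lower, and 11 were lower at an unadjusted p under 0.05, beside 13.7%. With the clone as a replicate block, or with median scaling, Prim2 was not called in WT and Ezh2 and Ung were. The methods' t-test with Benjamini-Hochberg adjustment called 0 members in each genotype. It called only 1 of 10214 features in WT and 0 in E2F3LQ, so this 0 does not set the members apart. Starved and proliferating arrays did not overlap, with starved lower, for 12 members in E2F3LQ MEFs, beside 24.8% of all features, and for 21 members in WT MEFs, beside 32.2%. The member median of each clone's own difference was -0.08 in clone 2 and -0.41 in clone 4 of E2F3LQ, and -0.30 in clone 1 and -0.57 in clone 16 of WT. Clone 2 was thus the clone with the smallest fall, and its proliferating array is the one that stood apart.

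**Figure D2:**
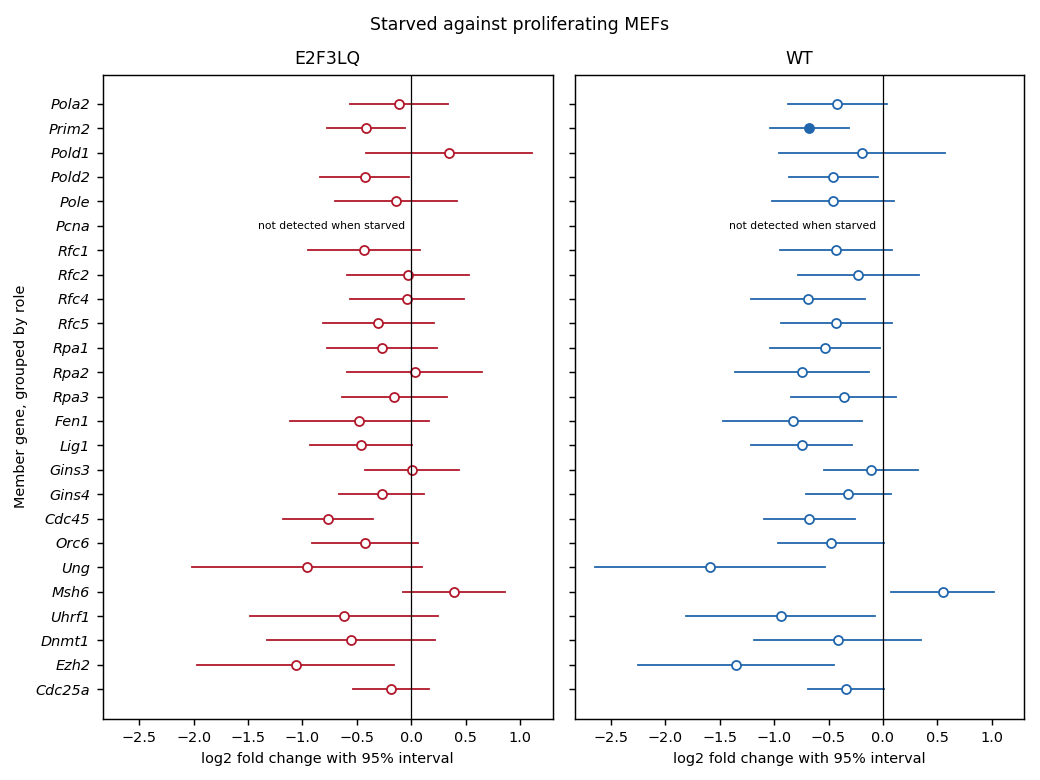
Log2 fold change of starved against proliferating MEFs for each member (rows), in E2F3LQ (left) and WT (right), with limma's 95% interval. Filled points passed an adjusted p of 0.05, which only Prim2 in WT did, and most points in both panels lie left of 0, with Msh6 to the right. Pcna has no point because it was not detected when starved.

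Leaving out the array of proliferating E2F3LQ clone 2 raised the counts of members called lower to 16 over both genotypes (median -0.53), 6 in E2F3LQ (median -0.45) and 9 in WT (median -0.46). The features called lower also became more, with 1535 of 10214 over both genotypes, 450 in E2F3LQ and 947 in WT, beside 1172, 219 and 439 with all arrays. Leaving out both arrays of a WT clone, clone 1 or clone 16, left 0 members called over both genotypes, with medians of -0.45 and -0.32, but few features of any kind were then called: 0 lower and 4 higher without clone 1, and 49 lower and 72 higher without clone 16. Over both genotypes the count was 4 without the starved array of E2F3LQ clone 4, 1 without that of E2F3LQ clone 2, 1 without that of WT clone 1 or of WT clone 16, and 2 without the proliferating array of WT clone 1 or of WT clone 16. Prim2 lost its call within WT when any starved array or a proliferating WT array was left out. In each of these 6 settings 1 group kept only 1 array. Fewer features of any kind were then called lower than with all arrays, over both genotypes and within WT. The counts thus changed with the array removed, while each of these medians stayed negative.

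Genotype was compared in starved MEFs and then in proliferating MEFs. In starved MEFs no member passed the threshold (limma adjusted p = 1 for each), as for 0% of all features. The methods' t-test also called 0 members, beside only 1 feature higher and 1 lower of all 10214. At an unadjusted p under 0.05 there were 2 members, Lig1 and Rpa2, both higher in E2F3LQ, beside 0.959% of all features. The values of 23 of 25 members were positive, with a median of 0.24, beside a median of 0.0024 over all features, of which 5173 of 10214 were positive. Without the undetected Pcna, 23 of 24 were positive and the median was 0.26. The 2 E2F3LQ arrays were above both WT arrays for 20 members, beside 17% of all features, and below both for 1, Cdc25a, beside 16.9%. An exact test of 2 arrays against 2 cannot give a p under 0.333.

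Rpa2, the middle subunit of the single-strand binding complex, had the largest difference. It read 6.42 and 6.40 in starved E2F3LQ MEFs, against 5.75 and 5.78 in starved WT MEFs, so the genotypes were well separated. The difference was 0.65 on the log2 scale (SE 0.26, 95% interval 0.03 to 1.27, limma adjusted p = 1), a ratio of 1.57. Rpa1 and Rpa3, its partners, differed by 0.39 and 0.28, both with E2F3LQ above WT on every array.

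Lig1 averaged 6.72 ± 0.21 in starved E2F3LQ and 6.23 ± 0.04 in starved WT MEFs (SD, n = 2 each), from the array values above. The difference was 0.50 (SE 0.20, 95% interval 0.03 to 0.96, limma adjusted p = 1), and the 2 dimmer Lig1 probes gave 0.26 and 0.21. Fen1 differed by 0.47 (SE 0.27), also without overlap.

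The polymerase and primase members all had positive values. Prim2 differed by 0.34 (SE 0.15, limma adjusted p = 1), but its second probe gave -0.06. Pola2, the regulatory subunit of polymerase alpha, read 6.61 and 6.45 in starved E2F3LQ, against 6.22 and 6.17 in starved WT MEFs. Pold1, the catalytic subunit of polymerase delta, read 8.28 and 8.71 in starved E2F3LQ, against 7.97 and 8.01 in starved WT MEFs. Its difference of 0.50 was as large as that of Lig1, with a wider error (SE 0.33). Pole, the catalytic subunit of polymerase epsilon, differed by 0.34, and its probe was not detected on the starved WT clone 16 array. All 5 measured members of this role were without overlap, with a median of 0.34.

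Among helicase factors, Gins3 read 5.36 and 5.41 in starved E2F3LQ, against 4.87 and 5.24 in starved WT MEFs. Its difference was 0.33 (SE 0.18, limma adjusted p = 1), 0.15 without starved WT clone 1 and 0.52 without starved WT clone 16. Gins4 differed by 0.22 without overlap, and Cdc45 by 0.14 with overlap. The 4 clamp loader subunits were each a little higher in both E2F3LQ arrays, by 0.05 (Rfc1) to 0.27 (Rfc2). Ung and Msh6 differed by 0.45 (SE 0.45) and 0.24 (SE 0.20). The chromatin members had small differences: Uhrf1 differed by 0.12, Dnmt1 by 0.16 and Ezh2 by 0.18, and for Uhrf1 and Ezh2 the genotypes overlapped.

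The exceptions were Cdc25a and Pcna. Cdc25a read 6.36 and 6.56 in starved E2F3LQ, against 6.65 and 6.57 in starved WT MEFs, a difference of -0.15 (SE 0.15). Pcna read 4.56 and 4.32 in starved E2F3LQ, against 4.54 and 4.56 in starved WT MEFs. None of these 4 Pcna readings was detected, so no fold is given for it.

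The E2F3LQ clones were also set one by one against the mean of the WT clones, which they share. In starved MEFs clone 2 was higher for 22 members (median 0.19) and clone 4 for 23 (median 0.35). In the starved condition the medians stayed between 0.19 and 0.35 when any array or clone was left out. No feature of any kind, member or not, was called in these settings. The array that stood apart is not a starved array.

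Markers of macrophages, another cell type such cultures can hold, were read as well. Of 13 macrophage markers 10 were measured, Ptprc was detected on no array, and Cd68 and Csf1r had no named probe. Their summed intensity was 705 and 1232 in starved E2F3LQ, against 1854 and 1974 in starved WT MEFs, and 2352 and 624 in proliferating E2F3LQ, against 4441 and 2048 in proliferating WT MEFs. In starved MEFs 8 of these 10 genes were lower in E2F3LQ, with a median of -0.82 and 0 called. In proliferating MEFs 9 were lower, with a median of -1.29, 6 at an unadjusted p under 0.05 and 0 called. The part of these markers in the members' values was not tested.

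**Figure D3:**
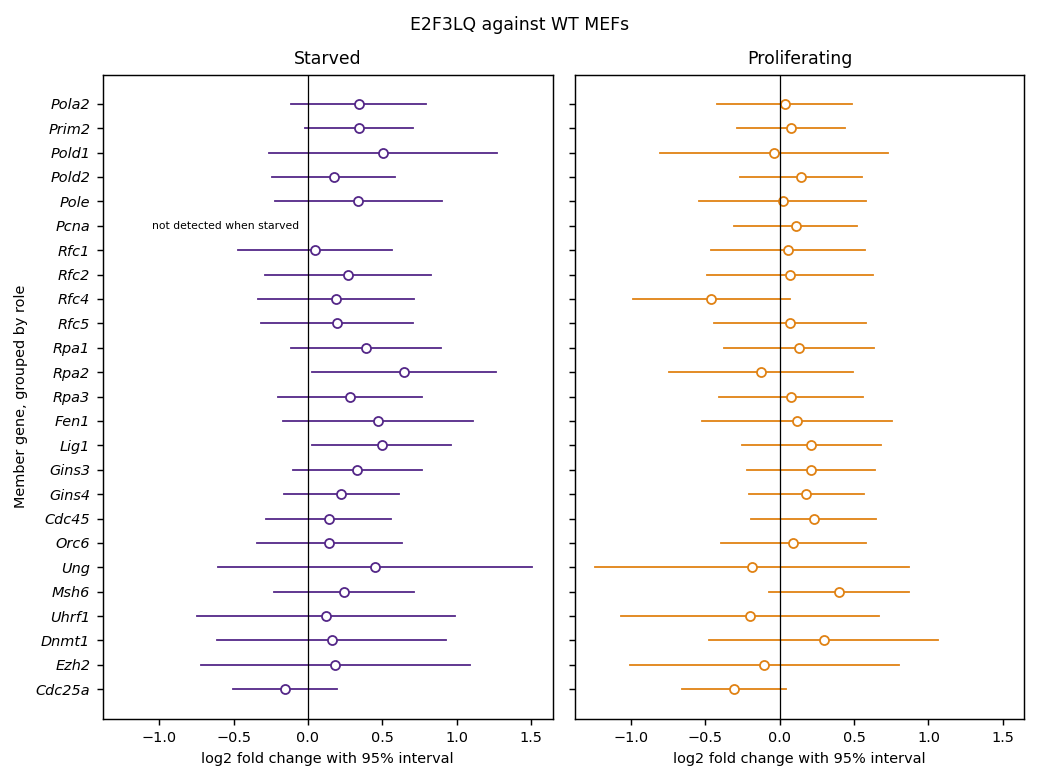
Log2 fold change of E2F3LQ against WT MEFs for each member (rows), in starved (left) and proliferating (right) cells, with limma's 95% interval. No point is filled, since no member passed an adjusted p of 0.05; in starved cells 23 of 24 points lie right of 0 (Pcna, not detected there, has none), and in proliferating cells 18 of 25 do.

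In proliferating MEFs the member median was smaller. Again 0 members passed the threshold (limma adjusted p = 0.999 for each), as for 0% of all features, with 0 members at an unadjusted p under 0.05. The methods' t-test called 0 members and 0 features of any kind. The member median was 0.08, beside -0.03 over all features, and 18 values were positive. The E2F3LQ arrays were above both WT arrays for 4 members, Gins3, Gins4, Cdc45 and Msh6, beside 9.54% of all features. They were below both for 2, Rfc4 and Cdc25a, beside 12.3%.

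Rfc4, a small subunit of the clamp loader, had the smallest p. It read 5.64 and 6.02 in proliferating E2F3LQ, against 6.06 and 6.53 in proliferating WT MEFs, a difference of -0.46 (SE 0.22, limma adjusted p = 0.999). It was -0.27 without proliferating E2F3LQ clone 2 and -0.22 without proliferating WT clone 16. Cdc25a read 6.71 and 6.58 in proliferating E2F3LQ, against 6.93 and 6.97 in proliferating WT MEFs (-0.31, SE 0.15), so it was the lower in E2F3LQ in both conditions. Msh6 was the higher in E2F3LQ in both conditions, with 0.40 (SE 0.20) here, and its second probe gave 0.59. Cdc45 differed by 0.23 (SE 0.18).

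Rpa2, Lig1 and Fen1, which separated in starved cells, overlapped here, while Gins3 separated in both conditions. Rpa2 read 5.96 and 6.80 in proliferating E2F3LQ, against 6.40 and 6.62 in proliferating WT MEFs, so the E2F3LQ clones bracketed the WT clones. Lig1 and Fen1 overlapped as well, at 0.21 and 0.11. For Rpa2, Lig1 and Fen1 clone 4 lay above both WT arrays, by 0.29, 0.39 and 0.56 over the WT mean. Clone 2 stood at -0.55, 0.03 and -0.33 from that mean, so the overlap came with the array that stood apart. Pcna read 4.75 and 4.62 in proliferating E2F3LQ, against 4.75 and 4.41 in proliferating WT MEFs, with the first reading of each genotype detected. The E2F3LQ clones themselves went opposite ways: against the WT mean, clone 2 was lower for 18 members (median -0.21) and clone 4 higher for 23 (median 0.36). The proliferating median is therefore 0.36 without clone 2 and -0.21 without clone 4.

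Clone pairs also differed within each genotype. Proliferating E2F3LQ clone 2 was below clone 4 for 22 of 25 members, beside 57.4% of all features, and proliferating WT clone 1 was below clone 16 for 21, beside 53.2%. Both held for 20 members, beside 39.4% of all features. After starvation clone 2 was below clone 4 for 19 members, beside 49.1% of all features, and clone 1 below clone 16 for 9, beside 48.1%. The largest gaps between the clones of a group, over the members and the 4 groups, were in proliferating E2F3LQ: 1.51 for Ung, 1.23 for Uhrf1 and 1.16 for Ezh2.

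**Figure D4:**
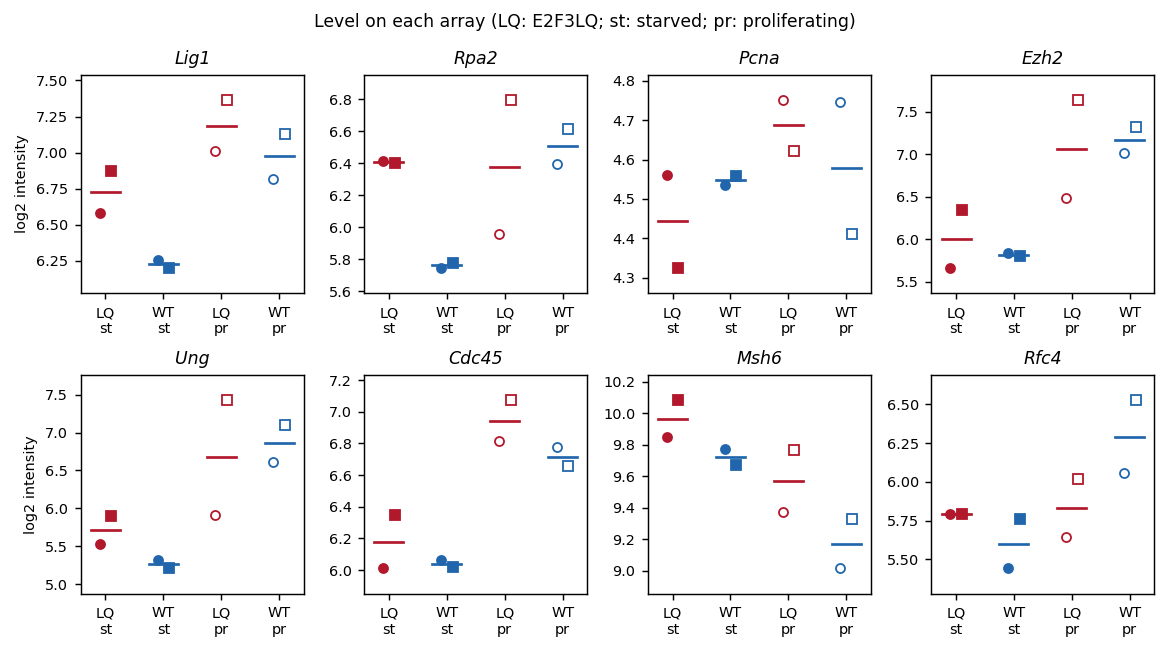
Normalized log2 intensity of 8 members on each array, with group means as bars. Red is E2F3LQ and blue WT, filled symbols are starved (st) and open ones proliferating (pr), circles are clones 2 and 1 and squares clones 4 and 16; each axis has its own range and does not start at 0, and Lig1 and Rpa2 separate by genotype in the starved columns only.

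The change of the genotype difference between conditions was tested directly as an interaction. No member passed (limma adjusted p = 1 for each), as for 0% of all features, with 0 members at an unadjusted p under 0.05. The smallest p was that of Rpa2, whose genotype difference was 0.77 larger in starved than in proliferating MEFs (SE 0.37, limma adjusted p = 1). That value was 0.36 without the array of proliferating E2F3LQ clone 2 and 1.19 without that of clone 4. The median was 0.20 over the members and 0.02 over all features, but it was -0.11 without the array of proliferating E2F3LQ clone 2. A difference between the conditions in the effect of genotype was thus not shown for any member.

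Wider lists of related genes were read the same way. Most mitotic genes fell after starvation: 9 of 10 measured (of 18 listed) were called lower over both genotypes, with a median of -1.24, with the smallest p for Aurka, a spindle kinase (-1.54, limma adjusted p = 0.00126), and Plk1, also a mitotic kinase (-1.56, limma adjusted p = 0.0022). Of other fork factors 2 of 18 measured (24 listed) fell, Top2a, the topoisomerase that untangles copied chromosomes (-1.46), which is also on the mitotic list, and Tipin, of the fork protection complex (-0.44). Of homologous recombination genes 3 of 10 measured (17 listed) fell, among them Blm, a RecQ helicase (-1.02), and Rad54l (-0.87). Of other mismatch and base excision repair genes 1 of 12 measured (18 listed) fell, Apex1, the abasic site nuclease (-0.73). Of other chromatin maintenance genes 3 of 11 measured (18 listed) fell, among them Rbbp7, a histone-binding protein (-1.24), and Cbx5, a heterochromatin protein (-0.89). In all 5 lists 0 genes rose. Beside the 11.5% of all features called lower, the shares of the fork factors and of the mismatch and base excision repair genes were near or under that background.

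Between genotypes in starved MEFs these lists had 0 calls. Positive values were seen for 14 of 18 fork factors (median 0.11), 7 of 12 repair genes (0.06), 10 of 10 recombination genes (0.18), 6 of 11 chromatin genes (0.06) and 10 of 10 mitotic genes (0.24), beside a median of 0.24 for the 25 members. Donson, of the replication fork, read 5.58 and 5.42 in starved E2F3LQ, against 4.84 and 4.95 in starved WT MEFs (0.61, SE 0.24, limma adjusted p = 1). Tipin read 9.61 and 9.76 in starved E2F3LQ, against 9.20 and 9.19 in starved WT MEFs (0.49, SE 0.15, limma adjusted p = 1). In proliferating MEFs the medians of the 5 lists lay between -0.05 and 0.03.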

How the data were processed

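Total RNA of 4 MEF clones in 2 conditions was hybridized to 8 Illumina bead arrays. The authors deposited a linear signal intensity, without visible correction, and a detection p-value against negative control beads for each probe and array. The paper names GenomeStudio without settings. The authors also deposited processed intensities, background-subtracted and quantile-normalized as the values show, which served as an alternative.

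Here, signals were corrected from the detection p-values, quantile-normalized and log2-transformed with neqc (limma 3.58.1, R 4.3.3, offset 16). Gene symbols came from GEO's annotation of the platform. Of 25697 probes 13666 were detected on at least 2 arrays, giving 10214 features, each from its brightest probe. A linear model of the 4 groups was fitted with lmFit and eBayes, with 4 residual and 3.27 prior degrees of freedom. The contrasts were genotype within each condition, starvation over both genotypes and within each, and their interaction. A call is a Benjamini-Hochberg adjusted p under 0.05 over all features, and a single gene's p is limma's. Bead numbers and depth were not used, and the number of arrays limits the precision. The fits were tested on simulated data with planted starvation changes. That simulation held no clone structure and no planted genotype difference, so it does not show how well such a difference would be found.

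The same clones were measured in both conditions, so starvation is paired by clone. Deviations of a clone's 2 arrays from their group means correlated at 0.291 in E2F3LQ and 0.0906 in WT across features. A clone block was an alternative. The others were no background correction, an offset of 50, median scaling, cyclic loess, other filters, probe means, an intensity trend, only the 4 arrays compared, a random clone block (statmod 1.5.0), the methods' t-test, and leaving out each array and clone.

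The members, wider lists and tests were chosen with earlier results of these data known. Values per array are given for Pcna, Lig1 and Rpa2, which RT-PCR covered in the study, for the 4 members with the smallest p in each genotype contrast and in starvation, for the smallest interaction p, and for members whose sign in starved cells opposed the median. The array values of Ung, Fen1, Pola2 and Pold1 were added after their values were seen. Wider list genes named are those called or with the smallest p. Promoter windows are from RefSeq, and figures were drawn with matplotlib 3.10.9.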

Additional observations from a re-analysis of the deposited data

Results flagged for a closer look

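Rfc4 had genotype differences of opposite direction in the 2 conditions: both E2F3LQ arrays were above both WT arrays in starved MEFs (5.79 and 5.79, against 5.44 and 5.76) and below both in proliferating MEFs (5.64 and 6.02, against 6.06 and 6.53). The interaction was 0.65 on the log2 scale (SE 0.32, limma adjusted p = 1), so it did not pass the threshold. A second Rfc4 probe, detected on 1 array, gave -0.08 in starved and -0.11 in proliferating MEFs.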

How the results depend on the processing

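Over both genotypes 7 members were called after starvation; 11 were with median scaling, 4 with no detection filter and 4 with the methods' t-test, and 0 to 16 when an array or clone was left out. Over both genotypes 1172 features were called lower, 1479 with median scaling, 1080 of 18312 with no detection filter and 1237 with the t-test. Leaving out an array or clone changed this number as well. In E2F3LQ MEFs 0 members were called, beside 219 features called lower. With median scaling (334 features lower), detection on all 8 arrays (256 of 7784) or a random clone block (351), 1 was called. In WT MEFs, where 1 was called, 8 were with only the 4 arrays compared, 3 with a random clone block, 2 with median scaling and 2 with the clone as replicate block, 0 with cyclic loess, the authors' processed values, probe means, an intensity trend or the methods' t-test, and 0 to 9 when an array or clone was left out. In WT 439 features were called lower, 844 with only the 4 arrays compared and 580 with a random clone block. The number was 381 with median scaling, 393 with the clone block, 358 with cyclic loess and 375 with the authors' processed values. It was 431 with probe means, 439 with an intensity trend and 1 with the methods' t-test. Leaving out an array or clone changed it too. The clone block left 6 members called over both genotypes, beside 1111 features called lower. Between genotypes and in the interaction, 0 members were called in every alternative that kept both arrays of each group compared. In these, 0 features of any kind were called, except 1 higher and 1 lower with the methods' t-test in starved MEFs. Without the proliferating array of E2F3LQ clone 4, features other than members were called for the proliferating genotype contrast and the interaction. Leaving out any other array gave no such calls. The labels do not tie replicate numbers across genotypes together. Deviations from the group means, paired by these numbers, correlated at r = 0.184 in starved and 0.473 in proliferating MEFs. Whether arrays with the same number share a factor was not tested. The block on replicate number called 0 members and 0 features between genotypes. The starved genotype median was 0.12 without background correction. Leaving out an array or clone, the E2F3LQ starvation median lay between -0.45 and -0.036 and the interaction median between -0.11 and 0.45. Median scaling moved the median of all features by -0.13 for starvation, with 538 features higher and 1479 lower, beside 1116 and 1172; relative to that shift the member median was -0.42. Of 440 recomputed values behind 18 single-gene results, 373 were unchanged in direction and call, 59 lost a call, 8 gained one (Msh6 after starvation) and 0 changed sign. The genotype and interaction results had no call to lose. All 59 lost calls were those of the 7 members called after starvation. Of 24 settings each, Cdc45 lost its call in 2, Prim2 in 7, Ezh2 and Lig1 in 8, Pold2 and Ung in 11 and Fen1 in 12. Causes were not tested. Signals near background limit Pcna, Pole and Gins3.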
